A study of Homo sapiens with 8 samples.

Results

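Hedgehog signalling was examined through 9 genes in J82, a human line derived from bladder cancer, after its cells had been sorted into SP and NSP cells. The genes were GAS1 together with the co-receptors BOC and CDON, the receptors PTCH1 and SMO, the inhibitor SUFU and the transcription factors GLI1, GLI2 and GLI3. They were found by their gene identifiers among the 57820 genes of the deposited count table. GAS1 was taken up because it was higher in SP cells in an earlier look at the same counts, and the others because of their known roles. The SP against NSP values of all 9 genes are therefore a description, and no p-value is given for them. SP (side population) cells pump out the DNA dye Hoechst and so sort as a dim fraction, and NSP (non-side population) cells stay bright. Both populations came from untreated J82 cells grown in DMEM with serum, and all libraries share this 1 line, so they are not a model of other tumours. There were 4 SP and 4 NSP libraries of mRNA. The labels do not say whether the 4 replicates of a group came from separate cultures or sorts, so the spread between them may be technical.

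Hedgehog ligands are secreted proteins that bind the receptor Patched, encoded by PTCH1. Without ligand, Patched holds back Smoothened, the product of SMO, and GLI3 and GLI2 are processed to repressors. With ligand, Smoothened acts at the primary cilium, SUFU releases the GLI factors, and targets such as GLI1 and PTCH1 itself are transcribed. GAS1, BOC and CDON are surface proteins that help ligand to reach Patched. GAS1, whose name stands for growth arrest-specific, is held to the membrane by a lipid anchor and was originally described as a gene of resting fibroblasts. In the urothelium, hedgehog ligand made by basal cells is known to signal to the stroma below.

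The counts were sparse. SP libraries held 1431823 to 1697218 counts in total and NSP libraries 1489033 to 2073526, and 8 of the 9 genes had at least 1 count, but only GAS1 and PTCH1 had enough for the fit across all genes. The paper states many times more raw reads per sample, and what became of the rest is not given in the sources used here. Values are given as CPM, counts scaled by the TMM-normalized library size so that libraries of unequal depth can be compared. The dye-efflux pump gene ABCB1 was at 30.3 ± 4.76 CPM in SP libraries and 4.05 ± 3.23 CPM in NSP libraries (SD, n = 4 each). ABCG2, the other pump known to clear Hoechst, had only 0 to 4 counts in any library. These came to 11 counts over the SP and 3 over the NSP libraries, too few for the fit. Of 15 urothelial and epithelial markers, 5 had enough counts for the fit. The keratin gene KRT8 was abundant, while KRT20, UPK3A and TP63 had 0 counts in all 8 libraries. KRT7 was called lower in SP cells by edgeR (log2 fold change -1.35, standard error 0.22). The other 4 tested markers were not called, with log2 fold changes from -0.29 in KRT8 to 0.22 in UPK2. The summed level of these 15 markers was 3430 to 4783 CPM in SP and 4676 to 6414 CPM in NSP libraries. Of 7 mesenchymal markers, all 7 could be tested. FN1 was called lower by edgeR (log2 fold change -1.25, standard error 0.17), and the other 6 were not called, from -0.76 in VIM to 0.99 in TWIST1. In TWIST1 the SP libraries were all above the NSP libraries, as in 4.78% of all tested genes. DESeq2 called 2 of the 7 lower and 0 higher, and 4 of the 7 had an unadjusted p under 0.05 by edgeR. Over all tested genes, edgeR called 1.63% higher and 2.03% lower. VIM made up most of the summed level of 341 to 513 CPM in SP and 555 to 922 CPM in NSP libraries. The 6 blood and endothelial markers found had 3 counts together. The part of these differences in the results below was not tested, and in sorted bulk cells fewer cells with a transcript and less of it per cell cannot be told apart.

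GAS1 stood apart from the other genes. GAS1 (ENSG00000180447.5) is a gene of 1 exon, 3145 bp long, on the minus strand of chromosome 9 of GRCh37, from 89559277 to 89562421, and no exon of another gene lies across it on the other strand. The SP libraries of replicates 1 to 4 held 66, 72, 84 and 58 GAS1 counts, which is 47.6, 48.3, 45.5 and 42.7 CPM. The NSP libraries held 10, 30, 15 and 17 counts, which is 5.32, 14.8, 9.57 and 11.8 CPM. The lowest SP value was thus well above the highest NSP value. Such a complete separation, with SP above, was seen in 4.78% of all tested genes, and in 9.75% when both directions are counted.

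The mean was 46.0 ± 2.50 CPM (SD, n = 4) in SP cells and 10.4 ± 3.99 CPM (SD, n = 4) in NSP cells. The log2 fold change from the fit across all 9309 tested genes was 2.14 with a standard error of 0.25, which is 4.41-fold. A gene was called where its adjusted p-value was below 0.05 and its fold change exceeded 1.3. Of the 2 members tested, GAS1 was called higher and PTCH1 was not called, beside 1.63% of tested genes called higher and 3.66% called either way, and since GAS1 was chosen for this difference nothing is read from its call. Among the 152 genes called higher, it ranked 8 by fold change, and it ranked 6 among the 120 that code for proteins. The spread within SP cells was small. The SD of 2.50 CPM was 5.43% of the mean there, which is below the 5.54 CPM that counting error alone would give. So small a spread over 4 libraries is therefore not read as a tight level in SP cells. In NSP cells the SD of 3.99 CPM was 38.5% of the mean, where counting error alone would give 2.47 CPM. The SP to NSP ratio of same-numbered libraries was 8.94 for replicate 1, 3.26 for replicate 2, 4.75 for replicate 3 and 3.63 for replicate 4. The high ratio of replicate 1 came with the lowest NSP value and the low ratio of replicate 2 with the highest.

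**Figure D1:**
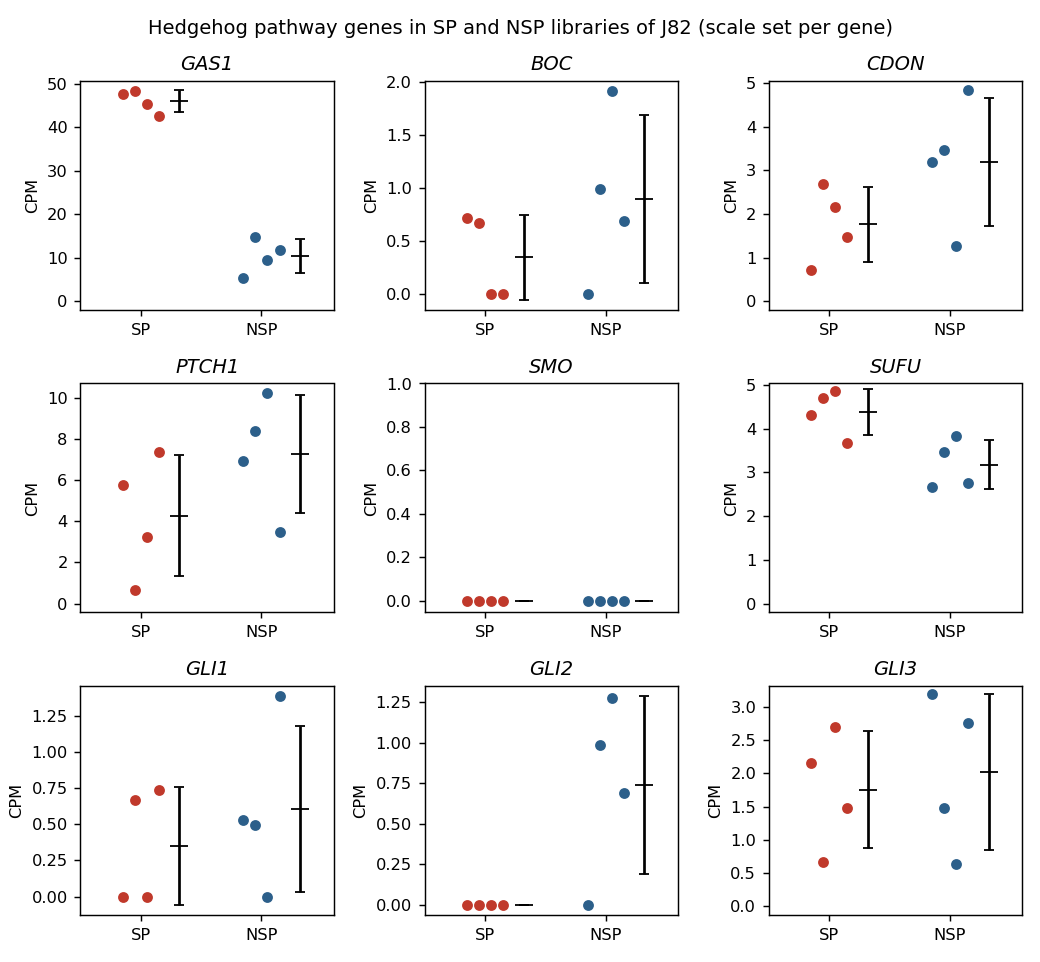
CPM (vertical axis, own scale for each gene) of the 9 hedgehog genes in the 4 SP (red) and 4 NSP (blue) libraries, with 1 point per library and the mean ± SD in black. GAS1 lies at 42.7 to 48.3 CPM in SP and 5.32 to 14.8 CPM in NSP libraries. The groups are separated in none of the other 8 genes, of which only PTCH1 had enough counts for the fit.

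**Figure D2:**
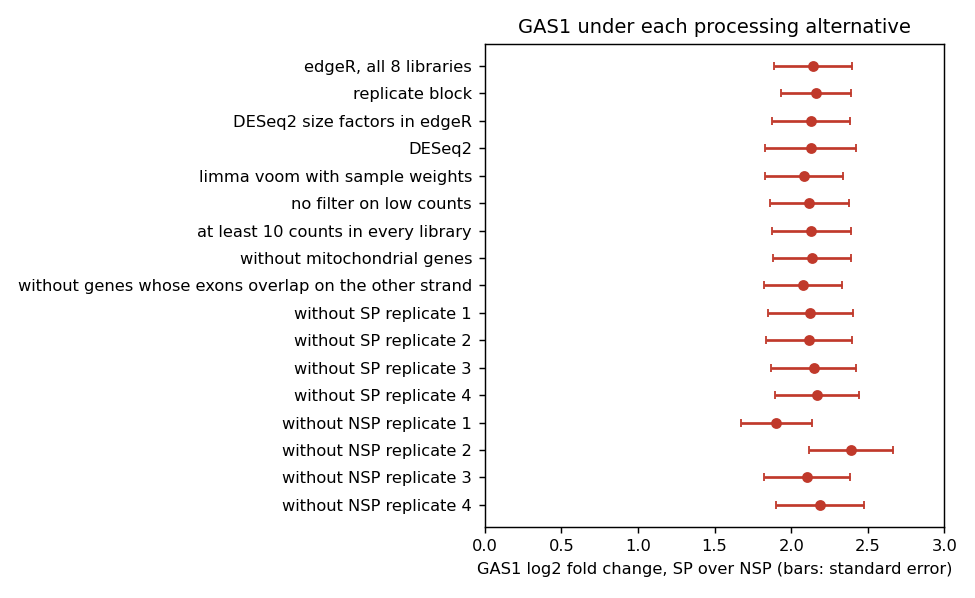
Log2 fold change of GAS1 (SP over NSP, bars: standard error) under the processing used and under each of the 16 alternatives, the 8 libraries left out singly included. All values lie between 1.90 and 2.39.

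The 250 bases before the RefSeq start of GAS1 are shown because it is the gene that differed. They match GRCh37 at chr9:89562422-89562671, on the minus strand, where no annotated exon lies. Of the 7 genes with an entry, PTCH1 was the only one with the 9 letters GACCACCCA that GLI factors are known to bind, on either strand, in a window of this length, and 30 bases around that match are shown beside it (chr9:98271701-98271730, minus strand). Capitals mark a forkhead-type match in GAS1 and the GLI match in PTCH1.
GAS1: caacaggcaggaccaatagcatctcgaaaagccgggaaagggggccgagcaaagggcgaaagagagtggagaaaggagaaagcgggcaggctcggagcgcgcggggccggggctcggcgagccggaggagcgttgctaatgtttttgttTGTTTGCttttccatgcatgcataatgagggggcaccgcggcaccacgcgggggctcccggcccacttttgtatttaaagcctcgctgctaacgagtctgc
PTCH1: gttgcctaccTGGGTGGTCtctctactttg
The GLI letters occur in 0.199% of the 35116 RefSeq promoter windows. In PTCH1 they begin 172 bases before 1 of its 5 listed starts. FOXC1, the study's transcription factor, belongs to the forkhead family, whose members are known to bind GTAAACA. These letters, searched on both strands, were not in the GAS1 window and are in 2.98% of all windows. The variant GCAAACA, which was added after the sequence had been seen, is in GAS1 on the reverse strand, 101 bases before the start, and in 3.23% of all windows. It is also in 1 of the BOC windows and 2 of the PTCH1 windows, and GTAAACA is in 1 window of BOC and 1 of PTCH1, so such matches are not particular to GAS1. The window of GAS1 is 60.0% G and C. These matches are letters in a window and not measured binding.

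The genes around GAS1 on chromosome 9 were examined next. Within 1 Mb on either side lie 35 other genes of the table, of which 15 had a count and 6 could be tested. None of the 6 was called (0 higher and 0 lower by edgeR and by DESeq2, with 0 at an unadjusted p under 0.05), and their log2 fold changes ran from -0.22 in GOLM1, which codes for a Golgi membrane protein, to 0.38 in TUT7, an RNA uridylyltransferase gene. As 3.66% of all tested genes were called either way by edgeR, 0 of 6 says little about the region. DAPK1, which codes for a death-associated kinase, had 31.9 ± 10.8 CPM (SD, n = 4) in SP cells and 29.0 ± 8.37 CPM (SD, n = 4) in NSP cells. CTSL, the cathepsin L gene, had a log2 fold change of 0.093 with a standard error of 0.37. GAS1RR, a lncRNA that starts on the other strand beside GAS1, had 3 counts in SP and 2 in NSP libraries, too few for a comparison. The neighbours were chosen after the value of GAS1 had been seen.

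**Figure D3:**
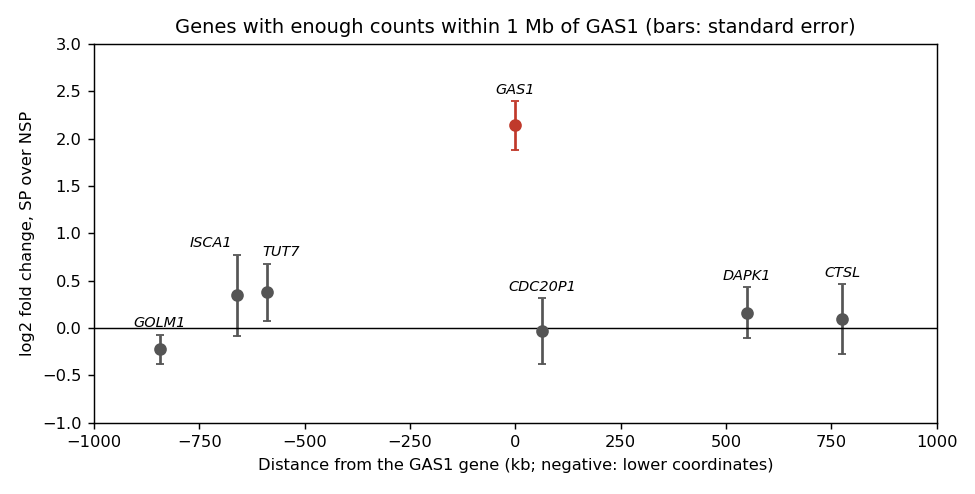
Log2 fold change (SP over NSP, bars: standard error) of the tested genes within 1 Mb of GAS1 by their distance from it in kb. GAS1 (red) is at 2.14, and the 6 neighbours (grey) lie between -0.22 and 0.38.

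The other co-receptors were near the limit of detection. CDON, an immunoglobulin-type co-receptor, held 1, 4, 4 and 2 counts in SP replicates 1 to 4 and 6, 7, 2 and 7 in NSP replicates 1 to 4. This is 1.76 ± 0.85 CPM against 3.19 ± 1.47 CPM (SD, n = 4 each), and the groups overlapped. The ratio of the summed levels, SP over NSP, was 0.569 with an exact 95% interval of 0.249 to 1.22 that covers counting error only. BOC, the close relative of CDON, had 1, 1, 0 and 0 counts in SP and 0, 2, 3 and 1 in NSP libraries, 8 in all. Neither gene had enough counts to show whether it differed, and neither was at a level like that of GAS1.

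Of the receptors, PTCH1 had the lower mean in SP cells and SMO was not detected. PTCH1, which codes for the ligand receptor and is itself a target of the pathway, held 8, 1, 6 and 10 counts in SP and 13, 17, 16 and 5 counts in NSP libraries, in replicate order. The mean was 4.26 ± 2.93 CPM (SD, n = 4) in SP cells and 7.24 ± 2.86 CPM (SD, n = 4) in NSP cells, with a log2 fold change of -0.81 and a standard error of 0.48. The groups overlapped, since NSP replicate 4 was below 2 of the SP libraries, and PTCH1 did not pass the threshold. SMO, the signal transducer, had 0 counts in all 8 libraries. A count of 0 allows up to 0.231 CPM over the 8 libraries together (3 counts), and 21.5% of the 19404 protein-coding genes had no count either, so absence of the transcript cannot be concluded from these counts.

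SUFU, which binds GLI factors in the cytoplasm and restrains them, was detected in every library. It held 6, 7, 9 and 5 counts in SP and 5, 7, 6 and 4 counts in NSP libraries. The levels were 4.32, 4.69, 4.87 and 3.68 CPM in SP and 2.66, 3.46, 3.83 and 2.77 CPM in NSP replicates 1 to 4. Within each number the SP library was the higher, yet the groups overlapped, as SP replicate 4 was below NSP replicate 3. The ratio of the summed levels was 1.40, with an exact 95% interval of 0.765 to 2.57 for counting error only.

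The GLI factors carried few reads. GLI3, mainly a repressor when no ligand is present, had 3, 1, 5 and 2 counts in SP and 6, 3, 1 and 4 in NSP libraries, which is 1.75 ± 0.88 CPM and 2.02 ± 1.17 CPM (SD, n = 4 each). GLI2, the main activator, had 0 counts in every SP library and 0, 2, 2 and 1 in NSP libraries, and the 0 in SP cells allows up to 0.493 CPM over the group. GLI1, whose transcript is widely used as a readout of pathway activity, had 0, 1, 0 and 1 counts in SP and 1, 1, 0 and 2 counts in NSP libraries. No difference in GLI1 or GLI2 was detectable with so few counts.

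Added together, the 8 genes other than GAS1 had 13.7, 10.1, 13.0 and 14.7 CPM in SP and 16.5, 19.3, 19.1 and 16.6 CPM in NSP libraries. Each SP sum was below each NSP sum, an order that 4.97% of all tested genes showed singly. The sums rest on 15 to 39 counts per library. GAS1, which was chosen for being higher in SP cells, had the opposite order. The groups overlapped when either PTCH1 or CDON was left out of the sum and stayed apart when any other of the 8 was. Without PTCH1 the remaining 7 genes summed to 8.60 ± 1.14 CPM (SD, n = 4) in SP cells and 10.6 ± 1.86 CPM (SD, n = 4) in NSP cells, and without CDON to 11.1 ± 2.71 CPM (SD, n = 4) in SP cells and 14.7 ± 2.70 CPM (SD, n = 4) in NSP cells. GAS1 held 78.2% of the counts on the 9 genes in SP libraries (358 counts) and 36.7% in NSP libraries (196 counts).

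Levels can be compared between genes only per length, so CPM was divided by the kb of annotated exon. GAS1 had 14.6 ± 0.79 CPM per kb in SP and 3.30 ± 1.27 CPM per kb in NSP cells (SD, n = 4 each), above 91.4% and 76.7% of protein-coding genes. SUFU followed with 0.550 ± 0.119 CPM per kb and PTCH1 with 0.333 ± 0.181 CPM per kb (SD over all 8 libraries), and every GAS1 library was above every library of both. SUFU and PTCH1 overlapped, as did PTCH1 and the next gene, GLI3 (0.137 ± 0.070 CPM per kb). GLI3, CDON, GLI1, BOC and GLI2 differed in mean by less than their spread from neighbour to neighbour, and SMO was last at 0. These levels are of the reads that the deposited counting assigned to each gene. Among 595 pairs with at least 100 counts, in which 50% or more of the exon sequence of a lncRNA lay opposite exons of a coding gene, the lncRNA was the denser of the pair, in counts per kb, in 88.2%. How reads were assigned by strand is not given in the sources used here, so the counts printed for a gene may be of reads from the opposite strand. The part of strand assignment in the low levels of the hedgehog genes was not tested.

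**Figure D4:**
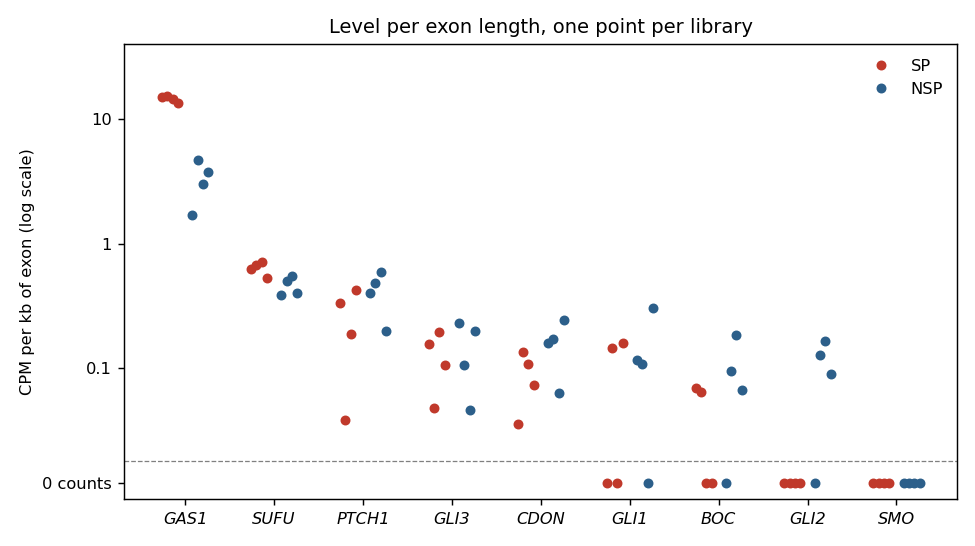
CPM per kb of exon on a log scale for the 9 genes in order of their mean, with 1 point per SP (red) or NSP (blue) library and libraries without a count below the dashed line. GAS1 is above all other genes in every library, and SMO has no count in any.

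Exons of 4 of the 9 genes lie across exons on the other strand. The lncRNA ENSG00000271155 shares 711 bp with PTCH1 and had 42.8 counts per kb, 9.73 times the density of PTCH1. It held 2, 7, 5 and 2 counts in SP and 21, 15, 3 and 5 in NSP libraries, with groups that overlapped. The partners of the other 3 were nearly empty: CFAP44 (beside BOC) had 4 counts, ARHGAP9 (beside GLI1) 1 count and ENSG00000243230 (beside SMO) 0 counts. With all genes of this kind left out of the table, an alternative chosen after seeing the data, the log2 fold change of GAS1 was 2.08.

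The wider pathway was examined through other genes. A list of 56 further genes, chosen by function, held 51 with a count and 23 that could be tested. None of the 23 was called higher (edgeR's quasi-likelihood test; 1, IFT172, had an unadjusted p under 0.05 in that direction, and DESeq2 called 0), and 1 was called lower, where the background over all tested genes is 1.63% higher and 2.03% lower. With the replicate block, 1 was called higher and 3 lower, and the calls over all genes rose to 548 higher and 652 lower. The median log2 fold change of the 23 was 0.066, beside 0.015 for all tested genes, and 12 of them were positive and 11 negative. The SP libraries were all below the NSP libraries for 3 of the 23, beside 4.97% of all tested genes.

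Ligand transcripts were hardly detected. SHH and IHH had 0 counts in all 8 libraries, which allows up to 0.231 CPM for each, and DHH had 1 count, in NSP replicate 4. Of the 8 genes for ligands and their release, 5 had a count and 0 reached the fit. SCUBE3, a secreted protein gene of a family that helps to release ligand, had the most, with 9, 3, 10 and 7 counts in SP and 10, 1, 6 and 4 in NSP libraries, and the groups overlapped. HHAT, the enzyme that adds palmitate to the ligand, had 1 to 5 counts in SP and 1 to 3 in NSP libraries.

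Of 9 other surface proteins, 4 were tested and 0 were called either way (edgeR; 1, GPC1, had an unadjusted p under 0.05, and DESeq2 called 0). Over all tested genes 3.66% were called either way by edgeR, so 0 of 4 says little about the set. GPC1, a glypican (a heparan sulfate proteoglycan of the cell surface), had 60.6 ± 10.3 CPM (SD, n = 4) in SP cells and 89.7 ± 17.1 CPM (SD, n = 4) in NSP cells. All its SP libraries were below all its NSP libraries, as in 4.97% of all tested genes. Its adjusted p was 0.105 (log2 fold change -0.58, standard error 0.18, edgeR). It was called lower at -0.57 when the replicate number was a block in the model (adjusted p = 0.00498). LRP2, a large endocytic receptor, had the highest value at 0.25 with a standard error of 0.38 (adjusted p = 0.809, edgeR), and the difference was -0.043 without NSP replicate 2. The decoy receptor HHIP had 2 to 4 counts in SP and 2 to 9 in NSP libraries.

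Of 29 cytoplasmic and ciliary regulators, 17 were tested, and 0 were called either way by edgeR or DESeq2, with 2 at an unadjusted p under 0.05. With 3.66% of all tested genes called either way by edgeR, 0 of 17 says little about the set. The kinases that prime GLI factors for processing were among those not called. PRKACA, the protein kinase A catalytic subunit, had a log2 fold change of 0.066 (standard error 0.20), GSK3B 0.11 (standard error 0.25) and CSNK1A1 0.25 (standard error 0.20). IFT172, a part of the intraflagellar transport complex that builds cilia, was at the upper end with 13, 11, 12 and 11 counts in SP and 4, 3, 1 and 10 in NSP libraries. Its log2 fold change was 1.53 with a standard error of 0.48 (adjusted p = 0.0989, edgeR). It was called higher with the replicate block (1.59, adjusted p = 0.00468) and at 2.35 without NSP replicate 4, which held the highest NSP value. ARRB1, a beta-arrestin gene, was at the lower end at -0.81 with a standard error of 0.36 (adjusted p = 0.259, edgeR).

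Of 12 target genes other than the receptors and factors above, 2 were tested, and CCND1, the cyclin D1 gene, was called lower. Over all tested genes 2.03% were called lower, and 2 genes say little about the set. SP cells had 117 ± 33.8 CPM and NSP cells 292 ± 35.1 CPM (SD, n = 4 each), with a log2 fold change of -1.32 (standard error 0.19, adjusted p = 0.00155, edgeR). CCND1 answers to many pathways and shares 497 bp of exon with LTO1 on the other strand, which was lower as well, at -1.51 with a standard error of 0.15. LTO1 held 10717 counts against 2758 for CCND1, which is 2.35 times its density per kb. From which strand the reads of either gene came was not tested. FOXM1, a cell cycle factor gene, had a log2 fold change of -0.55 with a standard error of 0.29 (adjusted p = 0.364, edgeR). FOXM1 was called lower at -0.65 when the model held the block (adjusted p = 0.00265, edgeR). The same call was made at -1.06 when SP replicate 3, which had the highest FOXM1 count of its group, was omitted. Other targets were sparse, and MYCN, CCND2 and HSD11B2 had 1 count each over all libraries.

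**Figure D5:**
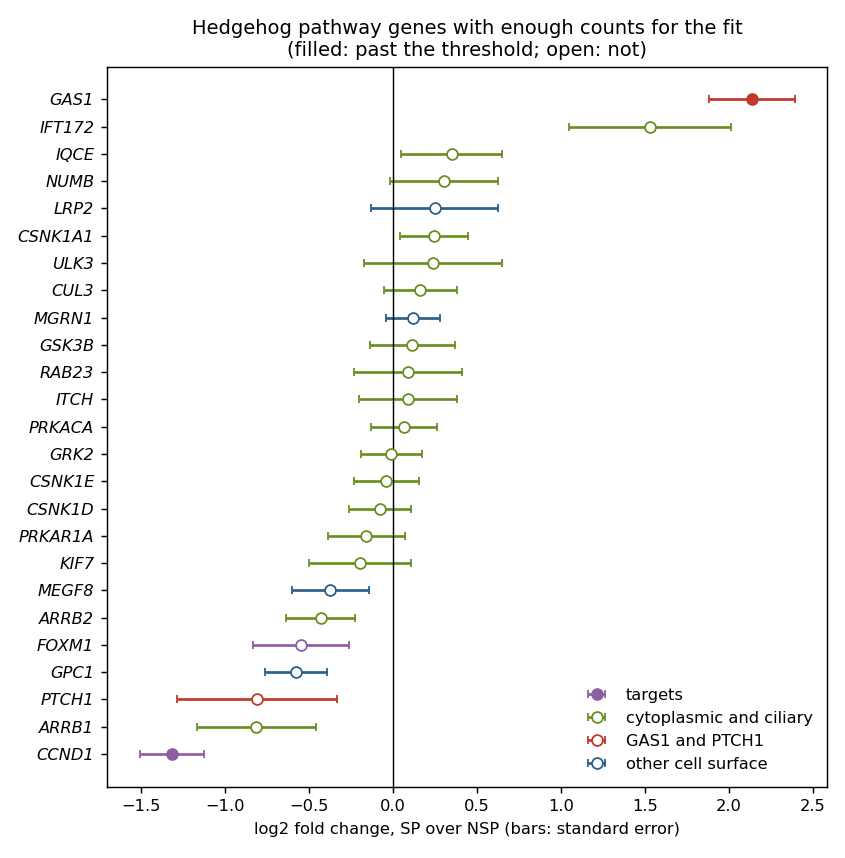
Log2 fold change (SP over NSP, bars: standard error) of the 25 hedgehog pathway genes with enough counts for the fit, coloured by role, filled where past the threshold and open where not. GAS1 is at 2.14 at one end and CCND1 at -1.32 at the other, and the remaining genes did not pass.

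GAS1 is related in sequence to the GFRA co-receptors of the kinase RET, which bind ligands of the GDNF family. Of these 6 genes only GFRA1 could be tested. It held 55, 57, 68 and 36 counts in SP and 91, 107, 75 and 71 counts in NSP libraries, or 35.3 ± 5.97 CPM and 49.5 ± 2.26 CPM (SD, n = 4 each). Every SP library was below every NSP library, as in 4.97% of all tested genes. GFRA1 was not called (log2 fold change -0.49, standard error 0.18, adjusted p = 0.175, edgeR). RET itself had 1 count in SP and 4 in NSP libraries, and GFRA2, GFRA4 and GFRAL had 0.

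Of 6 other genes named growth arrest-specific, 4 were tested. Of these, 0 were called higher by edgeR or DESeq2, and 1 was called lower. The background over all tested genes was 1.63% called higher and 2.03% lower by edgeR, and 4 genes say little about the set. In the higher direction 1 gene, PMP22, had an unadjusted p under 0.05 and an adjusted p of 0.113 by edgeR. PMP22, a membrane protein gene first described as GAS3, held 14, 24, 46 and 8 counts in SP and 9, 16, 10 and 9 in NSP libraries, a log2 fold change of 1.20 with a standard error of 0.39. GAS6, the ligand of the TAM receptor kinases, was called lower, with 31.3 ± 7.79 CPM (SD, n = 4) in SP cells and 77.0 ± 19.3 CPM (SD, n = 4) in NSP cells and a log2 fold change of -1.31 (standard error 0.22, adjusted p = 0.00428, edgeR). GAS6-AS1, which lies across it on the other strand, was called lower as well, at -1.66.

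The genes with the pattern most like GAS1 were sought by Pearson's r of log2(CPM + 1) among 9223 tested genes with a mean of at least 10 counts. Over the 8 libraries these were MAGED1 (r = 0.986), HIF1A (0.984), TNKS1BP1 (0.977), HIF1A-AS1 (0.977) and ZBED1 (0.968). HIF1A and HIF1A-AS1 share exon sequence on opposite strands. These values rest largely on the gap between SP and NSP libraries. For the deviations from the group means, they were ACBD3 (r = 0.971), ENSG00000165659 (0.954), FIS1 (0.952), ABCA3 (0.951) and BDNF (0.940), with no gene in both lists. FOXC1 had r = 0.885 over the 8 libraries and -0.36 for the deviations. The libraries share their depth and their normalization across genes, and with 8 libraries high values are reached by many genes, so these are a description only.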

How the data were processed

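RNA-seq of 4 SP and 4 NSP libraries of J82 was analysed. STAR (alignment to hg19) and featureCounts (assignment to genes of gencode version 19) were used by the authors, who deposited raw counts for 57820 genes that had not been normalized. Tool versions, the strand setting and the treatment of reads with several matches are not given in the sources used here. Identifiers were joined without their version to GENCODE v44 on GRCh37, the build hg19 corresponds to, and 55538 (96.1%) matched. Exon lengths come from that annotation and differ from version 19. Promoter sequences are RefSeq's, from a table on GRCh38.p14, and the printed ones were matched to GRCh37.

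Differences came from edgeR's quasi-likelihood test (version 4.0.16, R 4.3.3) after TMM normalization, with no covariate, on genes that passed filterByExpr (min.count 10, min.total.count 15). P-values were adjusted by Benjamini-Hochberg over all tested genes, and a call needed an adjusted p below 0.05 and more than a 1.3-fold change. The script was tested on simulated data. The alternatives were a replicate block, DESeq2 size factors, DESeq2 1.42.0, limma voom 3.58.1 with sample weights, 2 other filters, no mitochondrial genes, omission of each library and, chosen once the data had been seen, omission of genes that have exons opposite other exons. SP and NSP libraries of the same replicate number deviated together from their group means (correlations of 0.383, 0.205, 0.323 and 0.323), so the numbers pair the libraries by this check. The values given are nevertheless from the fit without the block, as designed, and the fit with it is an alternative. Replicates differed by more than sampling noise (chi-square per degree of freedom 5.70 to 13.2), and none were merged. Ratios of sums have exact conditional binomial intervals (scipy 1.17.1), which cover counting error only, as do the limits of 3 counts for a count of 0.

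The 9 genes and all lists were chosen with earlier results of these data known. The genes named are the 9, every gene called in the hedgehog lists, the highest and lowest tested gene of each of these lists, the ligands, the pump genes and FOXC1, genes across a member on the other strand, and the 5 most like GAS1 by each measure. Others were named after their values were seen. The symbol PECAM1 found no match.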

Additional observations from a re-analysis of the deposited data

Results flagged for a closer look

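In 2 of 64 groups of 4 libraries (the tested pathway genes, GFRA1, the growth arrest-specific genes, ABCB1 and FOXC1), a single library stood off from the rest, and about 3 such groups would arise by chance. For CSNK1E the gap to the nearest library made up 0.853 of the group's range (a casein kinase gene) in NSP cells, where replicate 3 was at 37.6 CPM and the next library at 59.5 CPM. For NUMB it made up 0.9002 in SP cells, where replicate 3 was at 8.66 CPM and the next library at 6.70 CPM. Neither group of GAS1 or PTCH1 had such a library.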

How the results depend on the processing

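GAS1 kept its direction and stayed past the threshold under all 16 alternatives, with a log2 fold change of 1.90 (without NSP replicate 1) to 2.39 (without NSP replicate 2), and 2.16 with the replicate block. Since GAS1 was chosen for this difference in the same libraries, these refits describe the effect of processing only and are no independent support. The replicate block called 548 genes higher and 652 lower in place of 152 and 189, and in the wider pathway 1 higher and 3 lower in place of 0 and 1, and changed no other call among the pathway genes named. Without a filter 303 of 26361 tested genes were higher and 381 lower, where the fit used had 9309 tested genes. Without genes that have exons across the other strand 4254 genes were tested, of which 59 were higher and 62 lower. In the wider pathway 0 were then lower, since CCND1 was left out. With single libraries left out, the calls were 69 to 164 higher and 89 to 181 lower: 91 and 110 without SP replicate 2, 93 higher without NSP replicate 1, and 69 and 89 without NSP replicate 2. The wider pathway then had 0 to 1 higher and 1 to 2 lower. LRP2 ranged from -0.043 (without NSP replicate 2), a reversal, to 0.72 (without NSP replicate 4). Other causes were not tested. The 7 untested members held 0 to 49 counts each over the 8 libraries, and the parts of depth and strand assignment in this were not told apart.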

Other observations

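Some genes on the other strand of the pathway genes held many more reads than the pathway genes themselves. HHIP-AS1, a lncRNA that shares 813 bp of exon with the decoy receptor gene HHIP, had 366 counts against 32 for HHIP. It held 15, 29, 28 and 44 counts in SP and 42, 66, 60 and 82 in NSP libraries, with a log2 fold change of -0.94 (standard error 0.32, adjusted p = 0.129, edgeR's quasi-likelihood test), and the groups overlapped. The lncRNA ENSG00000254429 opposite ARRB1 had 433 counts against 104 for ARRB1, with a log2 fold change of -0.71 (standard error 0.29), beside -0.81 for ARRB1. BAG2, a cochaperone gene opposite the small GTPase gene RAB23, was called lower in SP cells at -0.89 (standard error 0.20, adjusted p = 0.02, edgeR), while RAB23 was at 0.09 (standard error 0.32). ITFG2, opposite FOXM1, had 14769 counts against 1069 for FOXM1 and was called lower at -0.74 (standard error 0.19, adjusted p = 0.0428, edgeR). These genes were named after their values were seen, and reads of the paired strands were not told apart here.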
